A study of Mus musculus with 46 samples.

Results

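The receptors described here are T cell receptor beta chains of the mouse that join the segments TRBV13-2 and TRBJ2-1 with a CDR3 of 15 amino acids. They were picked out of every library table by 3 columns, the V segment, the J segment and the length of the CDR3. The class was chosen because it holds a receptor that recurs in the central nervous system (CNS), so its levels in CNS and in the matching periphery are given as a description, with no test. It comprised 590 clonotypes (different CDR3 amino acid sequences), 727 different nucleotide sequences and 854 rearrangements summed over libraries, of 153913 rearrangements in all. Together they took 76894 of 6441043 reads.

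The CDR3 is the loop of the receptor that reaches the peptide held by a major histocompatibility complex molecule. In the beta chain it is built by joining a V, a D and a J segment, with bases trimmed from the segment ends and random bases, called inserted bases here, added at the joins. A given amino acid sequence can therefore arise from several nucleotide sequences, each of them a separate joining event unless it is a read error, and loops that need few or no inserted bases are made more often. TRBV13-2, known as Vβ8.2 in the older naming, is a V segment long described in T cells that react to myelin proteins in mice with experimental autoimmune encephalomyelitis (EAE), an immunization model of inflammation of the CNS. In the annotation of mouse build GRCm38.p6 the segments lie on chromosome 6, with Trbv13-2 at 41121396 to 41121832, Trbd1 at 41533201 to 41533212, Trbd2 at 41542163 to 41542176 and Trbj2-1 at 41542754 to 41542803.

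Of the 46 samples of the study 17 are covered, and 29 were not analysed here. C57BL/6 wild-type mice with EAE, not pregnant, gave CD8-negative T cells of the CNS (n = 3) and of the periphery, meaning spleen and lymph nodes (n = 3). DEREG mice gave, from the same peripheral organs, regulatory T cells (Treg, CD4+Foxp3+) and conventional T cells (Tcon, CD4+Foxp3-). DEREG mice carry a transgene in which Foxp3 regulatory sequences drive a diphtheria toxin receptor fused to green fluorescent protein, so that Foxp3+ cells can be sorted. The Treg libraries were from mice with EAE at embryonic day 18 of pregnancy (E18, n = 5), non-pregnant mice with EAE (n = 1) and naive non-pregnant mice (n = 1). There was 1 Tcon library for each of the 4 combinations of EAE or naive with E18 or non-pregnant. The labels do not name the antigen used for immunization, and they do not say whether replicates came from separate mice, so spread and p-values cover the samples only. Sequencing of genomic DNA by multiplex PCR gave 278420 to 571124 reads and 1698 to 19898 rearrangements per library. The CNS libraries held the fewest rearrangements, from 1698 to 3078, against 6079 to 13303 in the periphery libraries. The number of cells behind a library is unknown, and a larger share of reads can come from more cells of a clone or from fewer other cells. The reads carried no molecular identifiers, so every interval below (Wilson, 95%) covers counting error only. Between 5.56% and 52.6% of the class rearrangements of a library had 1 read. Identical sequences also occurred in several libraries: 62 class rearrangements had at least 100 times as many reads in another library, the property that carry-over between libraries would give. Library counts of the recurrent receptor, versions shared with the CNS and overlaps between groups are given with and without such reads. Other counts include them unless stated.

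In 545 of the 590 clonotypes (92.4%) the CDR3 started with CAS, from the V segment, and ended with AEQFF, from the J segment. Receptors are therefore named here by the 7 residues at positions 4 to 10, counted from the cysteine as position 1. The recurrent receptor is GETGGNY, that is glycine, glutamate, threonine, glycine, glycine, asparagine and tyrosine between CAS and AEQFF. It was encoded by 14 nucleotide sequences, called versions. The 8 versions with the largest mean share of CNS reads are shown because they carry the receptor in the CNS, and version 9 is shown because it took most of the receptor's reads in a Treg library and was absent from the CNS, a choice made after its values were seen. Each line runs 5′ to 3′ over the 45 bases from the cysteine codon to the closing phenylalanine codon, as given in the deposited tables (genomic DNA, chromosome 6). Capitals mark bases that differ from version 1.
GETGGNY version 1: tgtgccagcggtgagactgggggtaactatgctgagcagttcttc
GETGGNY version 2: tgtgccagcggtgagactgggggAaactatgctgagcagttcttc
GETGGNY version 3: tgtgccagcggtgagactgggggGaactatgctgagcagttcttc
GETGGNY version 4: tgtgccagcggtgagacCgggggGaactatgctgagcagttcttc
GETGGNY version 5: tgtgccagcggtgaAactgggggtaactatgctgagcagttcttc
GETGGNY version 6: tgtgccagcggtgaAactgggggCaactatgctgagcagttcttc
GETGGNY version 7: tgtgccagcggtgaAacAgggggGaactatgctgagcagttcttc
GETGGNY version 8: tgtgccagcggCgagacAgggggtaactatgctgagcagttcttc
GETGGNY version 9: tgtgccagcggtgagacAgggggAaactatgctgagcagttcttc

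All 14 versions differed at only 5 of the 45 bases, at bases 12, 15, 18, 21 and 24, which are the last bases of codons 4 to 8. The codons for threonine (base 18) and for the glycine next to asparagine (base 24) each took 4 different bases among the versions, while bases 12, 15 and 21 took 2 each. By the deposited segment ends, 5 versions had no inserted base, 6 had 1 and 2 had 2, and 1 had no assigned D segment and 10 bases between V and J. These ends can span mismatches. Versions 3 and 4 both had TRBD2, 0 inserted bases and equal numbers of V and J bases, yet they differ at base 18. Version 8, also with 0 inserted bases, differs from version 1 at base 12, within its 14 V bases. A version without inserted base by these ends may therefore still hold bases that no segment supplies. TRBD2 was assigned to 8 versions and TRBD1 to 5.

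Among the other named receptors of the class, the 6 with most reads are shown to compare how far they lie from the recurrent receptor in sequence. Each line is the version with most reads, and capitals again mark bases that differ from version 1 of GETGGNY.
GETGGAY: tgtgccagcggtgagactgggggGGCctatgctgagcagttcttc
GDETGGY: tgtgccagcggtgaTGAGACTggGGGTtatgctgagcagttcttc
GESGGNY: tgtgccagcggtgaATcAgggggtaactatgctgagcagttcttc
GEPLGGG: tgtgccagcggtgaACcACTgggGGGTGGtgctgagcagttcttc
GYGGQNY: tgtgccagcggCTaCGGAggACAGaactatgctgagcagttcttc
GEAGGNY: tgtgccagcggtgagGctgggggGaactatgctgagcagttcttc

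GETGGAY, GESGGNY and GEAGGNY differ from the receptor by 1 amino acid, and the sequences shown differ by 3, 3 and 2 bases. GYGGQNY differs by 3 amino acids and 10 bases, and GDETGGY and GEPLGGG differ by 4 amino acids and 11 bases each. Inserted bases numbered 0 in the sequences of GETGGAY and GEAGGNY, 2 in those of GDETGGY and GESGGNY, 6 in GEPLGGG and 7 in GYGGQNY.

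Receptors of the class took a larger share of reads in 2 of the 3 CNS libraries than in any other library. Their share of all reads in the CNS was 0.775% (0.746 to 0.805), 4.06% (3.99 to 4.12) and 6.18% (6.10 to 6.27) in replicates 1, 2 and 3, with a mean of 3.67 ± 2.73% (SD, n = 3). In the periphery of the same group of mice it was 0.931% (0.898 to 0.964), 0.613% (0.587 to 0.641) and 0.644% (0.619 to 0.669), with a mean of 0.729 ± 0.175% (SD, n = 3). CNS replicate 1 lay within the range of the periphery, and CNS replicates 2 and 3 lay above it. The means lay 2.94 percentage points apart, which fell to 1.69 when CNS replicate 3 was left out and rose to 4.39 when CNS replicate 1 was. Ranked by reads among the 637 to 1484 classes of V, J and CDR3 length that a library held, the class was the 1st in CNS replicate 3, number 2 in replicate 2 and number 19 in replicate 1. It was number 5, 14 and 16 in the periphery libraries. Within TRBV13-2 reads alone it took 2.26%, 19.96% and 16.0% in the CNS and 4.03%, 3.40% and 4.35% in the periphery.

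In Treg of EAE E18 mice the class took 1.37% (1.33 to 1.40), 0.232% (0.218 to 0.248), 0.326% (0.308 to 0.344), 0.815% (0.782 to 0.849) and 0.922% (0.890 to 0.955) of reads, with a mean of 0.732 ± 0.464% (SD, n = 5). The Treg libraries of non-pregnant mice stood inside this range, at 0.519% (0.498 to 0.541) with EAE and 0.461% (0.444 to 0.479) without. Tcon gave 0.487% (0.466 to 0.509) in EAE E18, 1.94% (1.90 to 1.98) in EAE non-pregnant, 0.567% (0.543 to 0.592) in naive E18 and 0.282% (0.266 to 0.2995) in naive non-pregnant mice. Only the EAE non-pregnant Tcon library exceeded all Treg libraries, and 3600 of its 7828 class reads belonged to a receptor 1 amino acid from the recurrent one, described below.

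**Figure D1:**
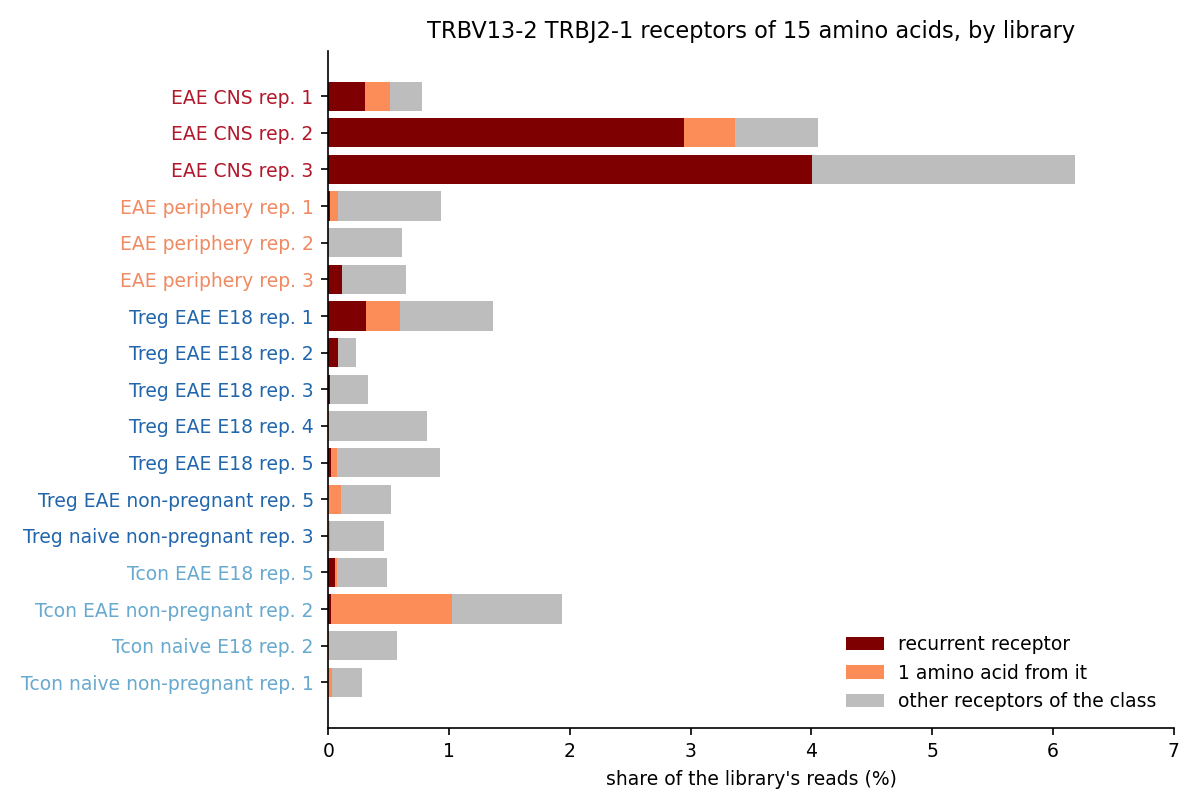
Share of all reads (percent, x axis) taken by the class in each of the 17 libraries (y axis), stacked by the recurrent receptor, class receptors 1 amino acid from it and other class receptors. CNS replicates 2 and 3 stand highest at 4.06% and 6.18%, and the EAE non-pregnant Tcon library follows at 1.94%.

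With each clonotype counted once, reads no longer weigh in. Class clonotypes made up 1.24%, 0.758% and 1.77% of the clonotypes of the CNS libraries (mean 1.26 ± 0.505%, SD, n = 3) and 0.634%, 0.434% and 0.560% of those of the periphery (mean 0.543 ± 0.101%, SD, n = 3). Every CNS value lay above every periphery value. They were 0.395% to 0.743% in the 7 Treg and 0.324% to 0.732% in the 4 Tcon libraries. The CNS value minus the periphery value was 0.713 percentage points, 0.384 when rearrangements within 3 bases of a sequence with at least 100 times their reads in the same library were left out, and 0.458 without CNS replicate 3. The count behind it is small, from 18 to 81 class clonotypes per library.

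With the recurrent receptor left out, the class took 0.472%, 1.11% and 2.18% of reads in the CNS and 0.918%, 0.612% and 0.530% in the periphery, so that CNS replicates 2 and 3 still lay above the periphery and replicate 1 below it. Receptors of the same segments just outside the length rule had lower mean shares in all 4 of CNS, periphery, Treg and Tcon. Those of 14 amino acids (489 clonotypes) took 0.808 ± 0.497% of CNS reads and 0.606 ± 0.116% of periphery reads (SD, n = 3 each), with means of 0.487% in Treg and 0.520% in Tcon, although CNS replicate 1 held more of them (1.26%) than of the class. Those of 16 amino acids (317 clonotypes) took 0.190 ± 0.0664% and 0.290 ± 0.121% in CNS and periphery, 0.157% in Treg and 0.185% in Tcon. TRBV13-2 is also favoured by natural killer T cells together with TRBV29 and TRBV1. These 3 V segments together held 29.6% to 42.3% of CNS reads, 29.1% to 30.9% of periphery reads, 20.3% to 37.7% of Treg reads and 27.9% to 34.0% of Tcon reads, and the part of such cells in the class was not tested.

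The recurrent receptor GETGGNY accounted for 36.4% of all class reads, and the receptor with its neighbours 1 amino acid away for 47.6%. In the CNS it took 0.302% (0.285 to 0.321), 2.94% (2.89 to 2.999) and 4.01% (3.94 to 4.07) of all reads, a mean of 2.42 ± 1.91% (SD, n = 3), or 39.0%, 72.6% and 64.8% of the class. In the periphery it took 0.0121% (0.00890 to 0.0165), 0.00123% (0.000480 to 0.00317) and 0.114% (0.104 to 0.125), a mean of 0.0423 ± 0.0620% (SD, n = 3). The CNS and periphery values did not overlap. The receptor was chosen because it recurs in the CNS, so this separation is a description only. Of the class reads in the periphery it held 1.30%, 0.201% and 17.7%.

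Beyond the mice that chose it, the receptor was present in 5 of 7 Treg and 3 of 4 Tcon libraries. In Treg of EAE E18 mice it took 0.313% (0.296 to 0.331), 0.0831% (0.0745 to 0.0926), 0.0180% (0.0143 to 0.0227), 0 of 278420 reads and 0.0241% (0.0193 to 0.02995). A count of 0 there allows up to 3 reads, or 0.00108%. Replicate 1 stood apart, with an interval that overlapped that of CNS replicate 1 and lay above those of the periphery libraries. Naive Treg held 2 reads (0.000350%) and EAE non-pregnant Treg held 0 of 415058 reads, which allows up to 0.000723%. Among Tcon, the EAE E18 library had 0.0544% (0.0477 to 0.0620), the EAE non-pregnant library 0.0191% (0.0152 to 0.0238), the naive non-pregnant library 1 read (0.000262%) and the naive E18 library 0 of 366714 reads, which allows up to 0.000818%. In the 3 naive libraries the receptor thus reached at most 2 reads. Without sequences that had at least 100 times as many reads in another library, it remained in all 3 CNS, 1 of 3 periphery, 3 of 7 Treg and 2 of 4 Tcon libraries, 9 of 17 in place of 14.

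The versions behind these levels differed between libraries. Version 1, joined with TRBD2 and no inserted base, held 9550 of the 13475 receptor reads of CNS replicate 3, 65 reads in CNS replicate 1 and 0 in CNS replicate 2. It also supplied all 221 receptor reads of the EAE E18 Tcon library, 73 of the 326 reads of EAE E18 Treg replicate 2 and all 80 reads of replicate 5. Both Treg counts are over 100 times below that of CNS replicate 3, so the carry-over filter removes them, and it keeps the Tcon reads. Version 2, with TRBD2 and 1 inserted base, had 402, 5115 and 1694 reads in the CNS and at most 17 in a periphery library, and was in no Treg or Tcon library.

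Version 3, with TRBD2 and no inserted base, was the most widespread, with 545, 1758 and 1550 reads in the CNS, 7, 1 and 38 in the periphery and 77 in the EAE non-pregnant Tcon library. Versions 2 and 3 were present in all 3 CNS libraries. CNS replicate 2 also held version 4 (1476 reads), version 5 (1361 reads), version 6 (1117 reads) and version 8 (111 reads), and CNS replicate 3 held version 7 (681 reads). These 5 versions had at most 9 reads in any other library. The same amino acid sequence thus came from 6 abundant rearrangements in CNS replicate 2 and 4 in CNS replicate 3, counting versions of at least 100 reads.

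Treg carried versions that the CNS libraries did not. Version 9, with TRBD1 and 1 inserted base, supplied 1265 of the 1268 receptor reads of EAE E18 Treg replicate 1, and the other 3 reads were version 13. Version 10, with TRBD1 and no inserted base, supplied 253 of the 326 reads of replicate 2. Version 13, with TRBD2 and 1 inserted base, supplied 69 of the 71 reads of replicate 3. Version 1, in replicates 2 and 5, was the 1 version found in both Treg and CNS, and 0 remained shared after the carry-over filter. Tcon and CNS shared 2 versions, 1 and 3, before and after the filter. In periphery replicate 3 the receptor came mostly from version 11 (209 reads) and from version 12 (197 reads), the version with no assigned D segment, and neither was in the CNS.

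**Figure D2:**
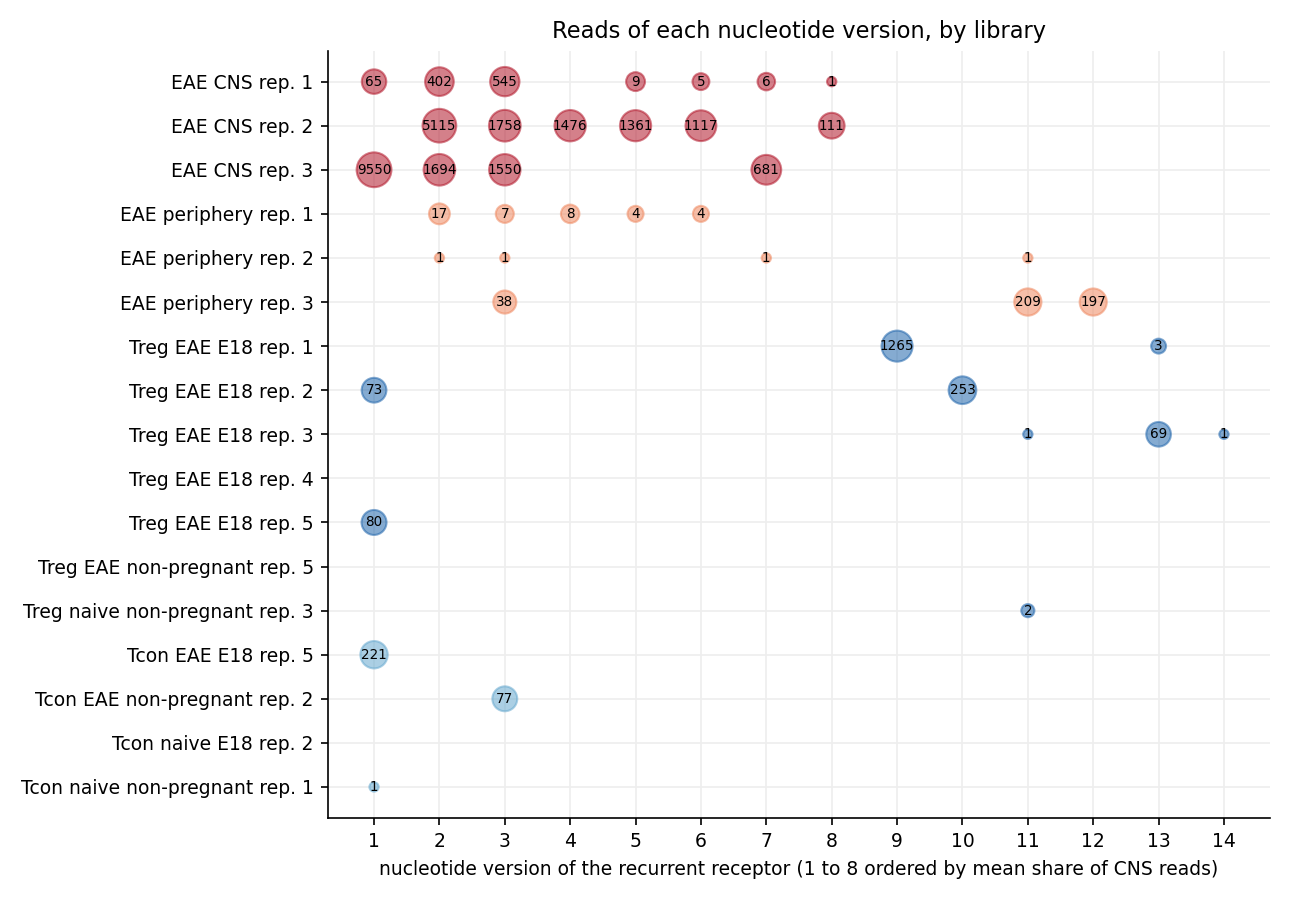
Reads of each of the 14 nucleotide versions of GETGGNY (x axis) in each of the 17 libraries (y axis), with the read number at each dot, dot area growing with log10 reads and colour giving CNS, periphery, Treg or Tcon. Versions 1 to 8 carry the CNS reads, version 9 appears only in EAE E18 Treg replicate 1 with 1265 reads, and versions 2 and 3 are the ones in all 3 CNS libraries.

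The receptor had 21 neighbours in the class, clonotypes that differ from it at 1 amino acid. They differed at position 6 in 6 cases, at position 9 in 5, at position 5 in 4, at position 3 in 2 and at positions 7, 8, 14 and 15 in 1 each. Of the 21 neighbours 8 had at most 2 reads, 11 were in at least 2 libraries and 10 had at least 2 versions. Leaving out rearrangements with the carry-over or the read-error property left 15. A further 59 clonotypes were 2 amino acids away.

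The most abundant neighbours replaced asparagine, glutamate or threonine. GETGGAY, with alanine in place of asparagine, reached 0.891% (0.862 to 0.920) of reads in the EAE non-pregnant Tcon library, 3600 reads of a sequence with no inserted base, and 146 reads (0.0361%) in EAE E18 Treg replicate 1. It had 1 read each in CNS replicate 1 and EAE E18 Treg replicate 3, and was not detected in the other libraries. GETGGVY, with valine there, took 0.0626% (0.0554 to 0.0708) of the same Tcon library and 34 reads in periphery replicate 1.

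Serine in place of threonine gave GESGGNY, at 0.135% (0.124 to 0.148) in CNS replicate 2, 0.219% (0.205 to 0.234) in EAE E18 Treg replicate 1, 0.0704% (0.0627 to 0.0789) in EAE non-pregnant Treg and 196 reads (0.0485%) in EAE non-pregnant Tcon. Its 4 versions had 2 or 3 inserted bases each. With alanine at that position, GEAGGNY took 0.0612% (0.0534 to 0.0701) and 0.285% (0.268 to 0.303) of CNS replicates 1 and 2. It was in 6 libraries as 6 versions, and in 5 libraries after the carry-over filter. Glycine there gave GEGGGNY, at 0.109% (0.0981 to 0.120) in CNS replicate 1 and 3 reads in EAE E18 Treg replicate 5.

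Glycine in place of glutamate gave GGTGGNY, which was in 7 libraries as 7 versions and in none of the CNS libraries. It had 138 reads in periphery replicate 1, 74 and 19 reads in the EAE E18 and naive E18 Tcon libraries, 110, 2 and 28 reads in EAE E18 Treg replicates 1, 2 and 4 and 14 reads in EAE non-pregnant Treg. Alanine or glutamine in place of glutamate gave GATGGNY, with 105 reads in EAE E18 Treg replicate 5 and 56 in EAE non-pregnant Treg, and GQTGGNY, with 87 reads in EAE non-pregnant Treg. GETGGTY, with threonine in place of asparagine, had 130 reads in CNS replicate 1 and 18 in naive non-pregnant Tcon, and GELGGNY, with leucine in place of threonine, had 49 reads in EAE E18 Treg replicate 5 and 22 in naive non-pregnant Tcon.

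Such a number of neighbours was high for the class but not the highest. The median clonotype had 2 neighbours, and 122 clonotypes (20.7%) had none. GDAGGGY had 33 and GDAGGNY 30, followed by GETGGNY with 21, GDALGGY and GDAGGAY with 20 and GGTGGNY with 19.

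Other class receptors with high CNS shares were mostly abundant in 1 CNS library. In CNS replicate 3 these were GDETGGY at 0.663% (0.636 to 0.691), GEPTGGG at 0.361% (0.341 to 0.382), GDVGNNY at 0.249% (0.233 to 0.266), GDPGGNY at 0.241% (0.225 to 0.258), GDVGGAR at 0.240% (0.224 to 0.257) and GDAGGGD at 0.189% (0.174 to 0.204). In CNS replicate 1 each of these 6 had 3 to 15 reads, which the carry-over filter removes for GDETGGY, GDVGNNY, GDVGGAR and GDAGGGD. In CNS replicate 2 GEPLGGG took 0.471% (0.449 to 0.493). The filter removes its 9 reads in CNS replicate 1 and its 13 in periphery replicate 1. GEPTGGG and GEPLGGG share proline after glutamate and end in 3 glycines.

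Several of the most abundant class receptors of Treg libraries were private to Treg or nearly so. This was not particular to Treg, because 81.2% of class clonotypes and 87.5% of all clonotypes were in 1 library. Some leaders outside Treg were as private, with GEPGKDY in naive E18 Tcon alone and GDPDWGD in periphery replicate 2 with 1 read elsewhere. Others were not. GETGGAY, leader of EAE non-pregnant Tcon, was in 4 libraries and GDPGGNY, leader of naive non-pregnant Tcon, in 6. GETGGNY, a leader both in Treg and outside it, was in 14. GYGGQNY led EAE E18 Treg replicate 5 at 0.460% (0.437 to 0.483), with 1 read elsewhere, in replicate 4. GAAGVNY led replicate 4 at 0.241% (0.223 to 0.260), with 11 reads in replicate 2. GATGDNY led replicate 3 at 0.124% (0.113 to 0.135) and had 1 read each in CNS replicate 2 and EAE E18 Treg replicates 1 and 2.

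EAE E18 Treg replicate 1 also held GDAPGPR at 0.236% (0.221 to 0.251), a sequence with no assigned D segment that had 74 reads in the EAE E18 Tcon library, and GDALGGY at 0.0650% (0.0576 to 0.0733), which stood at 0.102% (0.0921 to 0.114) in CNS replicate 3. GDPGGPY led EAE non-pregnant Treg at 0.101% (0.0922 to 0.112) and GAGTGGL led naive Treg at 0.0329%, each in that library alone. Naive libraries had low leaders in Tcon too, GEPGKDY at 0.0314% in naive E18 and GDPGGNY at 0.0315% in naive non-pregnant mice. GDPGGNY, in 6 libraries (4 after the carry-over filter) as 5 versions, was the only leader of a naive library that was also among the CNS receptors named above. In periphery replicates 1 and 2 the leaders were GDAGQNY at 0.0833% (0.0741 to 0.0938) and GDPDWGD at 0.107% (0.0966 to 0.119). GETGGNY led the class in 7 of the 17 libraries, all 3 from the CNS, periphery replicate 3, EAE E18 Tcon and EAE E18 Treg replicates 1 and 2.

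Position by position, the receptor's residues ranged from common to uncommon in the class. Glycine stood at position 4 in 95.8% of clonotypes. At position 5 aspartate was most common (48.8%), followed by glycine (13.2%) and the receptor's glutamate (12.5%), and at position 6 alanine (22.2%) and glycine (15.9%) preceded its threonine (11.0%). Glycine led position 7 (47.6%) and position 8 (66.6%). Position 9 was divided between glycine (33.1%) and asparagine (29.8%), with alanine at 10.3%, and tyrosine held position 10 in 68.8%. Tryptophan (11.2%) and leucine (9.66%) were the next residues at position 7. Outside these positions each position had 1 residue in 98.1% to 100% of clonotypes.

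With the recurrent receptor left out and each clonotype counted once, glutamate at position 5 was more frequent on average in the CNS than elsewhere. It was in 22.8 ± 8.16% of class clonotypes in the CNS (14.3% to 30.6%, SD, n = 3) and in 11.0 ± 6.59% in the periphery (3.45% to 15.6%, SD, n = 3), so the ranges overlapped. The means were 11.1% in Treg (3.85% to 15.7%, n = 7) and 13.4% in Tcon (4.08% to 23.3%, n = 4). Rearrangements with the read-error property were not left out of these shares, and they can include variants of the receptor that keep its glutamate. They were 14 of 47, 3 of 23 and 17 of 35 class rearrangements in CNS replicates 1, 2 and 3. In the periphery they were 17 of 90, 0 of 34 and 7 of 38. Their part in the CNS mean was not tested. Weighted by reads, glutamate was in 47.7% of the remaining class reads of the CNS (16.6% to 80.2%) and 4.21% of those of the periphery (0.0504% to 9.77%). It was in 9.59% in Treg (0.0441% to 24.3%) and 25.2% in Tcon (5.18% to 58.3%). Few clones carried the highest values. The 80.2% was CNS replicate 2, where GEPLGGG had 1749 reads, GEAGGNY 1059 and GESGGNY 503. The 58.3% was EAE non-pregnant Tcon, where GETGGAY had 3600 reads, and the other Tcon libraries stood at 5.18%, 17.3% and 20.1%.

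Threonine at position 6 was about as frequent in the CNS (11.1%) as in the periphery (11.3%), with 13.4% in Treg and 8.45% in Tcon. Glycine at position 7 was in 59.2% of CNS, 49.9% of periphery, 51.7% of Treg and 44.6% of Tcon clonotypes. Glycine at position 8 was in 77.5% of CNS, 60.7% of periphery, 66.8% of Treg and 70.3% of Tcon clonotypes, and asparagine at position 9 in 35.3%, 35.6%, 31.2% and 31.2%. At position 10, tyrosine was in 65.1% in the CNS, 75.8% in the periphery, 72.5% in Treg and 70.7% in Tcon. These shares carry no test between CNS and periphery, because the class was chosen on CNS libraries.

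**Figure D3:**
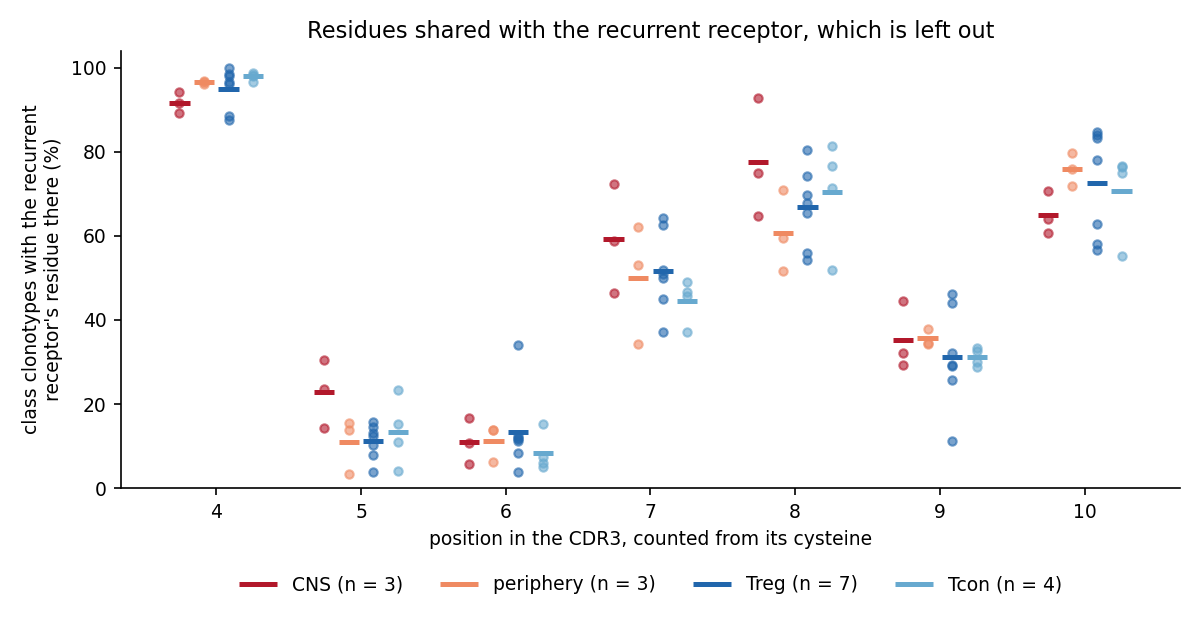
Share of class clonotypes, with the recurrent receptor left out (percent, y axis), that carry the receptor's residue at each of positions 4 to 10, with a point per library and a bar at the mean of CNS (n = 3), periphery (n = 3), Treg (n = 7) and Tcon (n = 4). Glutamate at position 5 has a mean of 22.8% in the CNS and 11.0% to 13.4% elsewhere, with overlapping points. The read-error filter was not applied.

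Hydrophobic residues at positions 6 and 7 have been used as a mark of self-reactive receptors. Here a class clonotype was counted if position 6 or 7 held alanine, valine, isoleucine, leucine, methionine, phenylalanine, tryptophan, tyrosine or cysteine. This list and the rule of either position were set here, so the share is not a published score. Over conditions with both cell types the mean share was 61.7% in 7 Treg and 56.8% in 3 Tcon libraries. Averaged within conditions the difference was 4.88 percentage points and did not pass the test (exact two-sided permutation test within strata, p = 0.417, adjusted p = 0.729 over the 5 tests between groups, smallest possible p 0.0417). EAE E18 Treg replicates 1 and 2 spanned 38.9% to 80.8%, a wider range than the difference.

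In the class 479 of 590 clonotypes (81.2%) were in 1 library, against 87.5% of all clonotypes, 86.7% of those of TRBV13-2 with other J segments and 89.1% of those of TRBJ2-1 with other V segments, both of 15 amino acids. Of the rest, 70 were in 2 libraries, 22 in 3, 11 in 4, 2 in 5, 4 in 6 and 1 in 7, and the recurrent receptor was in 14. In all, 111 clonotypes were in at least 2 libraries, and 93 after the carry-over filter. Identical nucleotide sequences were shared less, with 87 of 727 (12.0%) in at least 2 libraries and 53 after the filter. A single version encoded 86.3% of clonotypes, 81 clonotypes had at least 2 versions, 25 at least 3 and 13 at least 4.

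Clonotypes in more libraries had more versions and, by the deposited segment ends, fewer inserted bases. Of the 479 in 1 library, 2.92% had at least 2 versions and 11.3% had a version without inserted base. Of the 92 in 2 or 3 libraries these shares were 55.4% and 15.2%. Among the 19 in at least 4 libraries 16 (84.2%) had several versions and 13 (68.4%) a version without inserted base, and without the recurrent receptor 15 of 18 (83.3%) and 12 of 18 (66.7%). These sets include reads that the carry-over filter removes, and with the filter 13 clonotypes were in at least 4 libraries. The smallest number of inserted bases had a median of 3, 2 and 0 in these 3 sets, and the number of neighbours a median of 2, 5 and 9. A clonotype in more libraries had more chances to show several versions, so these counts are partly fixed by how they were made.

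**Figure D4:**
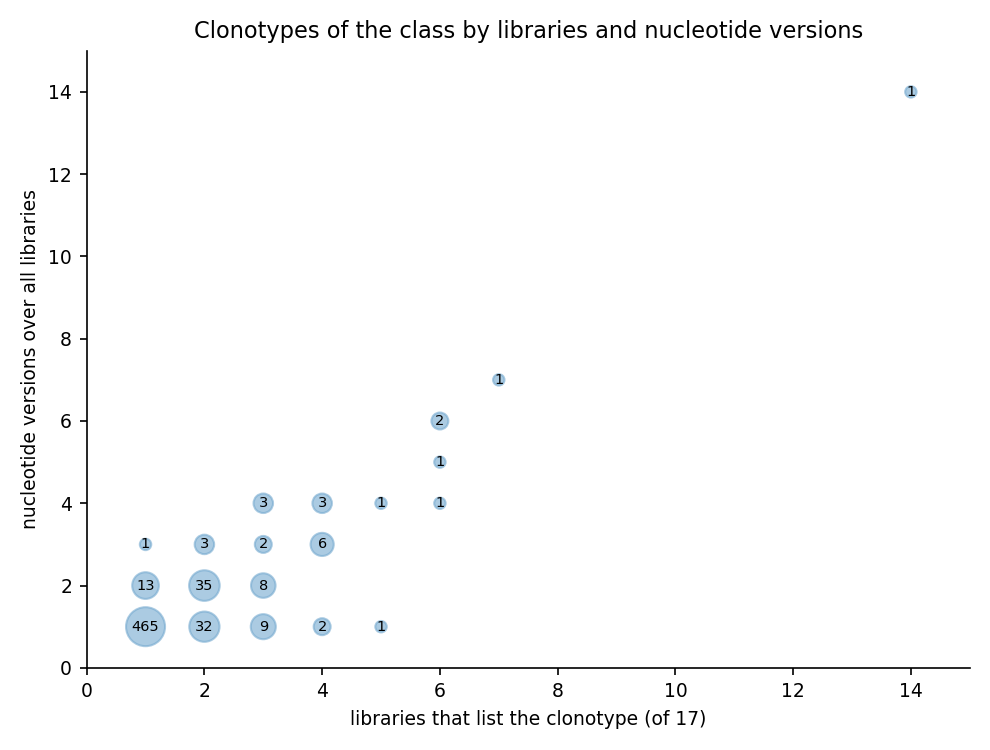
Number of nucleotide versions (y axis) against number of libraries (x axis) for the 590 class clonotypes, with bubble area and printed numbers giving the clonotypes at each point. The 465 clonotypes with 1 version in 1 library form the largest bubble, and GETGGNY stands alone at 14 libraries and 14 versions.

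Over all 727 sequences of the class, the number of inserted bases had a median of 2, a mean of 2.76 and a maximum of 10, and 100 (13.8%) had none. TRBD2 was assigned to 68.0% and TRBD1 to 28.3%, and 3.71% had no D. Of the receptors of 15 amino acids that join TRBV13-2 to another J segment, 49.8% had TRBD2, and of those that join TRBJ2-1 to another V segment 59.5%. The shares without inserted base were 13.7% and 12.7%. As background, TRBD2 lies between the TRBJ1 and TRBJ2 clusters and is normally joined to TRBJ2 segments, while other J segments include both clusters.

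Class clonotypes were shared between DEREG libraries more often than receptors pooled over other J or other V segments were. No other single pair of V and J segments was compared, so the class is not shown to stand out among such pairs. In the 11 DEREG libraries, 36.4 ± 16.3% of class clonotypes (SD, n = 11, from 16.0% to 65.4%) were found in at least 1 other DEREG library. For TRBV13-2 with other J segments, also of 15 amino acids, it was 26.7 ± 11.4% (SD, n = 11). The class was higher in 10 of 11 libraries, by 9.67 percentage points on average (exact two-sided sign-flip permutation test over libraries, p = 0.00293, adjusted p = 0.00879 over the 6 tests between classes). The exception was naive E18 Tcon, with 16.0% for the class and 20.1% for the other receptors.

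For TRBJ2-1 with other V segments it was 22.5 ± 11.9% (SD, n = 11), and the class was higher in 11 of 11 libraries, by 13.9 percentage points (exact sign-flip permutation test, p = 0.000977, which is the smallest possible, adjusted p = 0.00586). With the recurrent receptor left out the differences were 8.70 and 12.9 points. Each shared clonotype counts in every library that holds it, so the libraries are not independent, and the p-values are too small to that extent. The class was chosen for a recurrent receptor. Its other clonotypes share the V segment, J segment and length of that receptor, so leaving the receptor out does not undo the choice. The p-values do not allow for it.

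Inserted bases and versions did not separate the class from these pooled receptors in the same way. Mean inserted bases per rearrangement were 2.76 ± 0.331 in the class, 2.89 ± 0.216 with other J segments and 2.99 ± 0.175 with other V segments (SD, n = 11 libraries each). The difference to other J segments was -0.130 (exact sign-flip permutation test, p = 0.217, adjusted p = 0.325). The difference to other V segments was -0.230, with the class lower in 8 of 11 libraries (exact sign-flip permutation test, p = 0.0156, adjusted p = 0.0312), and it did not pass with the recurrent receptor left out (-0.172, adjusted p = 0.0742 by the same permutation test), with the read-error filter (-0.162) or weighted by reads (-0.0370). Leaving out 1 library took the adjusted p to between 0.0234 and 0.0625, above the threshold for 7 of the 11. It stayed below the threshold without EAE E18 Tcon, naive E18 Tcon, EAE E18 Treg replicate 1 or naive Treg. Nucleotide sequences per clonotype within a library were 1.063 ± 0.0491 in the class, 1.050 ± 0.0257 and 1.048 ± 0.0165 in the comparison receptors (exact sign-flip permutation test, adjusted p = 0.639 and 0.518).

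**Figure D5:**
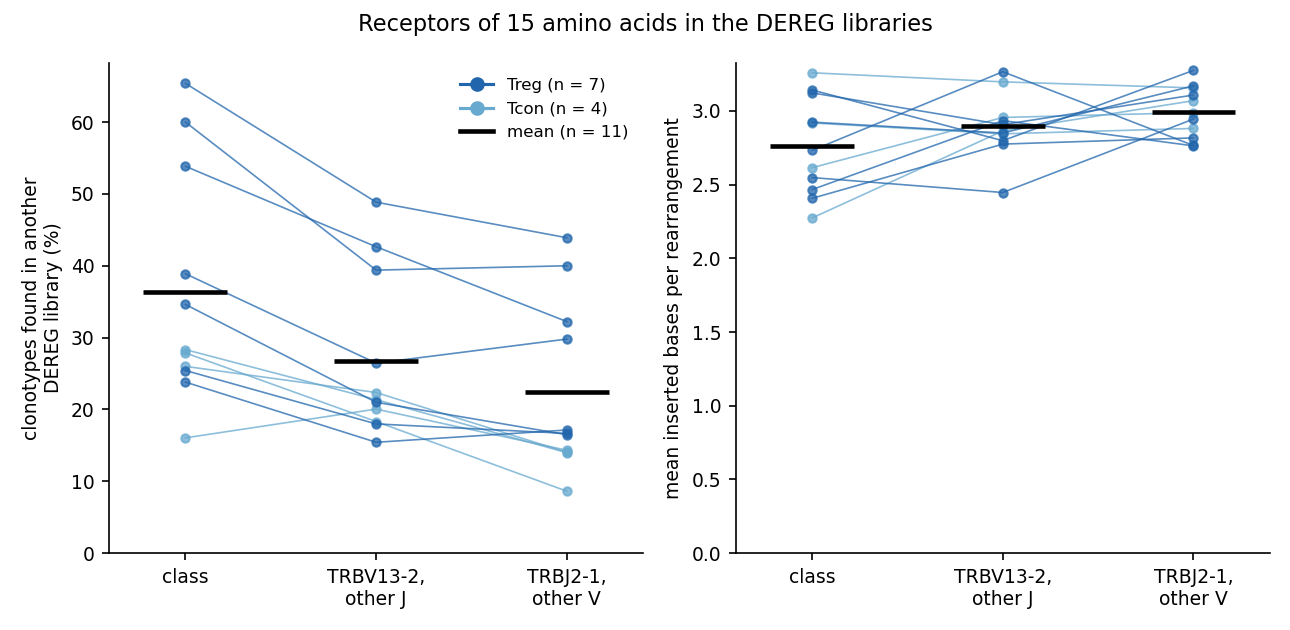
Left, share of clonotypes found in another DEREG library (percent), and right, mean inserted bases per rearrangement, for the class, TRBV13-2 with other J segments and TRBJ2-1 with other V segments, all of 15 amino acids. Points are the 11 DEREG libraries and black marks the mean, at 36.4%, 26.7% and 22.5% on the left and 2.76, 2.89 and 2.99 on the right.

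Between the groups of DEREG libraries no difference in class reads passed the test. Reads were summed per class of V, J and CDR3 length, and 1309 classes were fitted with edgeR's quasi-likelihood test with Benjamini-Hochberg adjustment. For Treg minus Tcon the class changed by a log2 of 0.20 (SE 0.97, adjusted p = 1), for E18 minus non-pregnant by -0.24 (SE 0.68, adjusted p = 0.998) and for EAE minus naive by 1.70 (SE 0.79, unadjusted p = 0.0464, adjusted p = 1). In each of these comparisons 0 of 1309 classes were called (0%), while 44, 46 and 28 had an unadjusted p under 0.05, and by DESeq2 18, 21 and 15 classes were called. The EAE value was 0.20 without the EAE non-pregnant Tcon library, in which GETGGAY had 3600 of 7828 class reads. With each rearrangement counted once, edgeR called 20 of 341 classes for Treg minus Tcon (5.87%) and 0 (0%) for the other comparisons, with 9 and 11 at an unadjusted p under 0.05. The class itself was at 0.35 (SE 0.21, adjusted p = 0.513), -0.04 (SE 0.19, adjusted p = 0.980) and 0.46 (SE 0.21, adjusted p = 0.976) in that fit. The tables of Treg, Tcon and wild-type libraries come under separate codes of unstated meaning, so code and cell type cannot be told apart.

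The receptor with its neighbours, together the receptor family, varied widely over the DEREG libraries. Only EAE E18 Treg had replicate libraries, so variation between libraries could not be told from variation between groups. The family took 0.596%, 0.0836%, 0.0183%, 0.0101% and 0.0713% of reads in EAE E18 Treg, 0.108% in EAE non-pregnant Treg and 0.0138% in naive Treg. In Tcon it took 0.0726% in EAE E18, 1.02% in EAE non-pregnant, 0.00518% in naive E18 and 0.0273% in naive non-pregnant mice. All 3 naive libraries lay at or below 0.0273%, while the EAE libraries ran from 0.0101% to 1.02%, so the groups overlapped.

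Averaged within conditions, Treg minus Tcon was -0.281 percentage points (exact permutation test, p = 0.583) and E18 minus non-pregnant was -0.308 (exact permutation test, p = 0.542), each with 24 assignments. EAE minus naive was 0.385 (exact permutation test, p = 0.25, the smallest that 8 assignments allow). All 3 had an adjusted p of 0.729, and the first 2 changed sign without the EAE non-pregnant Tcon library, at 0.0349 and 0.0128. Mean inserted bases of class rearrangements were 2.76 in 7 Treg and 2.72 in 3 Tcon libraries (difference within conditions 0.0640, exact permutation test, p = 0.833, adjusted p = 0.833).

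Class clonotypes shared between tissues and cell types are given as a share of each set, beside the same for all clonotypes, with no test. The CNS libraries held 70 class clonotypes, the periphery 130, Treg 250 and Tcon 234. CNS and periphery shared 15, which is 21.4% of the CNS and 11.5% of the periphery clonotypes, and 7 after the carry-over filter (10.9% and 5.69%). Of all clonotypes, CNS and periphery shared 23.7% of the CNS and 5.76% of the periphery, and 16.5% and 3.76% after the filter. CNS and Treg shared 16 (22.9% of CNS, 6.40% of Treg clonotypes), and 12 after the filter (18.8% and 4.82%), against 17.9% and 2.09% of all clonotypes (12.6% and 1.35% after the filter). CNS and Tcon shared 13 (18.6% and 5.56%), and 13 after the filter (20.3% and 5.60%). Of all clonotypes these shares were 11.6% and 1.29%, and 10.8% and 1.11% after the filter. Treg and Tcon shared 31 (12.4% and 13.2%), and 29 after the filter (11.6% and 12.5%). Of all clonotypes these shares were 9.75% and 9.37%, and 9.47% and 9.09% after the filter. Within the CNS, 12 of the 70 class clonotypes were in at least 2 libraries and 2 in all 3, and after the filter 7 and 1. No share over all clonotypes is given beside these counts, so they do not show whether the class is unusual. The class was chosen for a receptor that recurs in the CNS, and GETGGNY was in all 3 before and after the filter.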

How the data were processed

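T cell receptor beta rearrangements were sequenced from genomic DNA of sorted mouse T cells, isolated with a Qiagen AllPrep kit and amplified by PCR with primers for mouse V and J segments, per the labels' protocols. The deposited tables give a read count per CDR3 nucleotide sequence, with no normalization, and a fraction that equals the count divided by the table's total. They also give segment names and ends. The program that assigned them is not given in the sources used here. The genome build is mm10, per the submitters' processing notes. Segment positions came from RefSeq (GRCm38.p6).

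Samples were grouped by the labels. Reads were kept as deposited, and inserted bases were counted from the deposited segment ends, which were not checked against germline sequences. Named receptors were GETGGNY, the leader of each library, the 10 with the largest mean CNS share, the 10 in most libraries, the 10 with most versions and the 10 neighbours in most libraries. Members, lists and tests were chosen with earlier results of these data known. Classes averaging 10 or more reads entered edgeR 4.0.16 under R 4.3.3 (TMM, quasi-likelihood, two-sided; Benjamini-Hochberg at 0.05), with immunization and gestational state, or cell type and the other of these, as terms. Groups of 1 library were assumed to vary like the others. Naive E18 Tcon, with no Treg counterpart, was part of the edgeR fit but did not enter the permutation tests of Treg minus Tcon. Alternatives were DESeq2 1.42.0, no TMM, no filter on classes, at least 2 reads, each rearrangement counted once or weighted by reads, the carry-over filter, the receptor left out, each library left out and, added after seeing the data, the read-error filter. Scripts were tested on simulated data. The other tools were matplotlib 3.10.9, scipy 1.17.1, pandas 2.3.3 and numpy 2.4.6 under Python 3.11.15.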

Additional observations from a re-analysis of the deposited data

Results flagged for a closer look

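In EAE E18 Treg the recurrent receptor GETGGNY stood at 0.313% of reads in replicate 1, while the other 4 libraries lay between 0 and 0.0831%, a gap beyond Dixon's 95% limit for 5 values. The receptor with its neighbours stood at 0.596% in the same library against 0.0101% to 0.0836%. Of the 1268 receptor reads there 1265 were a single nucleotide version, version 9. Chance flags about 1 in 20 groups when values are normally distributed, which was not checked for these shares. The 8 combinations of group and measure checked were all of EAE E18 Treg. The family's share contains the receptor's, so these flags are not separate.

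Single libraries moved in opposite directions in the share of reads taken by the class, and these differences were not tested. Treg minus Tcon was -1.42 percentage points in EAE non-pregnant and 0.179 in naive non-pregnant mice. E18 minus non-pregnant was -1.45 in EAE Tcon and 0.285 in naive Tcon. EAE minus naive was -0.0801 in E18 Tcon, against 1.65 in non-pregnant Tcon and 0.0579 in non-pregnant Treg. The values of -1.42, -1.45 and 1.65 each include the EAE non-pregnant Tcon library, in which GETGGAY alone took 0.891% of reads.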

How the results depend on the processing

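Of 312 alternative values over 21 results, 283 kept their direction and side of the threshold (or stayed within the spread), 15 reversed, 10 no longer passed and 4 moved. The shares of clonotypes in another DEREG library passed under every alternative run (8.57 to 12.7 and 12.9 to 16.97 percentage points). Inserted bases against other V segments no longer passed with the read-error filter (-0.162), weighted by reads (-0.0370) or without GETGGNY (-0.172), and ranged from -0.263 to -0.174 with 1 library left out. Leaving out 1 library moved the receptor family from -0.463 to 0.0349 points (Treg minus Tcon, reversed at 0.0349 without EAE non-pregnant Tcon or Treg) and from -0.485 to 0.0128 (E18 minus non-pregnant, reversed at 0.0128 without EAE non-pregnant or E18 Tcon). Inserted bases, Treg minus Tcon, ranged from -0.158 to 0.350 (reversed at -0.000251 and -0.158), and versions per clonotype against other J segments from -0.00394 (without EAE E18 Treg replicate 2) to 0.0196. Class reads by edgeR (log2) ranged from -0.76 to 1.06 (Treg minus Tcon, reversed at -0.76, -0.12 and -0.12), from -0.76 to 0.99 (E18 minus non-pregnant, reversed at 0.08 and 0.99) and from 0.20 to 2.31 (EAE minus naive), and without TMM Treg minus Tcon was -0.042. Classes called rose from 0 to 20 with each rearrangement counted once (Treg minus Tcon) and to 18, 21 and 15 with DESeq2. Apart from these constructions (fewer samples, other weights or filters), the cause was not tested.

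With the replicate number as a block, added after seeing the data, the class share of reads in CNS minus periphery was -0.156, 3.44 and 5.54 points for numbers 1, 2 and 3, with the mean of 2.94 fixed by construction. Deviations from the group means over 1206 classes had correlations of -0.00673, 0.0300 and 0.0261 between same-numbered libraries, so the numbers were not taken as pairs. The Treg and Tcon groups share 1 replicate number, which allows no block. Libraries of 18 to 81 class clonotypes, groups of 1 library and unknown cell numbers limit every comparison between groups.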
